A study of Mus musculus with 6 samples.

Results

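The genes of the tumour necrosis factor (TNF) superfamily were examined in cultured mouse granulocyte-monocyte progenitors. A gene counted as a member when its symbol in the deposited table started with Tnfsf or Tnfrsf, or was Tnf, Lta, Ltb, Ltbr, Cd40, Cd40lg or Cd27, which gave 38 of the 23337 genes listed. Of these, 15 encode ligands and 23 encode receptors. After a filter on low counts 22 members, 7 ligands and 15 receptors, were among the 11283 genes tested.

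The cells were C57BL6 bone marrow progenitors carrying ER-HOXA9, a fusion of the hormone-binding part of the oestrogen receptor with the leukaemia-associated homeobox factor HOXA9, which holds progenitors in an immature state while oestrogen is present. All 6 libraries came from cells grown in serum-containing medium supplied with stem cell factor, with beta-estradiol added at 0.5 micromolar in every group, day 0 included. The first group was untreated cells at day 0, the vehicle group received DMSO for 3 days, and the drug group received 200 nM GSK-LSD1, 5 micromolar mercaptopurine and 5 micromolar cerulenin together for 3 days. GSK-LSD1 inhibits the histone demethylase LSD1, mercaptopurine is a purine analogue and cerulenin inhibits fatty acid synthase. The drugs were given only in combination, so no effect can be assigned to any of them. Each group had 2 biological replicates. The labels do not say whether these came from separate animals or from 1 clone, and the p-values measure the spread between these cultures. Messenger RNA was enriched on its poly(A) tails before sequencing.

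TNF superfamily ligands are trimers, mostly membrane-bound, that cluster their receptors on a neighbouring cell. Receptors with a death domain can recruit FADD and caspases, whereas most others bind TRAF adaptors and activate the canonical or the non-canonical NF-kB pathway. In the myeloid lineage the family is best known for inflammatory signalling, survival and contact with lymphocytes.

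Library totals ranged from 11305666 to 16948697 counts, of which the ribosomal RNA gene Rn45s took 14.6% to 24.6%. Levels are given as CPM, the usual depth-scaled count, after scaling each library to its effective total, and where genes are compared with each other as CPM per kilobase of exon. A change was called at an adjusted p under 0.05 in edgeR's quasi-likelihood test (Benjamini-Hochberg adjustment over all tested genes). The label was checked against marker genes: all 8 granulocyte-monocyte progenitor markers were tested and summed to between 7521 and 11016 CPM in every library. Mpo alone made up 3495 to 6954 CPM of these sums. With the drugs against vehicle, Fcgr3, Mpo and Kit were higher, Ctsg and Cebpa were lower and 3 were not called. With vehicle against day 0, Elane was higher, Fcgr3 was lower and 6 were not called. The T and NK cell markers summed to at most 0.645 CPM, with Cd3d, Cd3e, Cd3g and Cd4 among the 7 of 10 at 0 counts in all libraries. In bulk RNA, fewer cells of a type and less RNA per cell cannot be told apart.

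Receptors made up nearly all of the family's RNA. Their levels summed to between 300.2 and 341.9 CPM per library, whereas the ligands summed to 13.0 and 11.3 CPM at day 0, 9.88 and 11.5 CPM with vehicle and 18.3 and 17.2 CPM with the drugs. The ligand sum was higher in both drug libraries than in any other library. Tnfrsf1b, Tnfrsf1a, Tnfrsf21, Ltbr and Tnfrsf26 together took 79.7% to 84.5% of all member counts.

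Per kilobase, averaged over the 3 groups, the highest levels were those of Tnfrsf1a at 25.8, Tnfrsf1b at 20.0, Tnfrsf21 at 18.8 and Ltbr at 13.7 CPM per kilobase. Tnfrsf1a, a death domain receptor, and Tnfrsf1b, which signals through TRAF adaptors, both bind TNF. In the vehicle libraries Tnfrsf1b was at 21.4 ± 1.99 and Tnfrsf21 at 19.7 ± 1.37 CPM per kilobase (SD, n = 2). These means differed by less than the SD of Tnfrsf1b but by more than that of Tnfrsf21. Tnfrsf1b was above Tnfrsf21 in both vehicle libraries. Tnfrsf14, Tnfrsf13b and Tnfrsf26 followed at 11.3, 8.49 and 8.19 CPM per kilobase, and the highest ligands, Tnfsf12 and Tnfsf14, reached 1.71 and 1.67 CPM per kilobase. By group mean Tnfsf14 was the higher of the pair in both day 3 groups. With the drugs Tnfsf14 at 2.06 ± 0.204 and Tnfsf12 at 1.91 ± 0.440 CPM per kilobase differed by less than either SD. The exons of Tnfsf12 overlap those of BC096441.

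**Figure D1:**
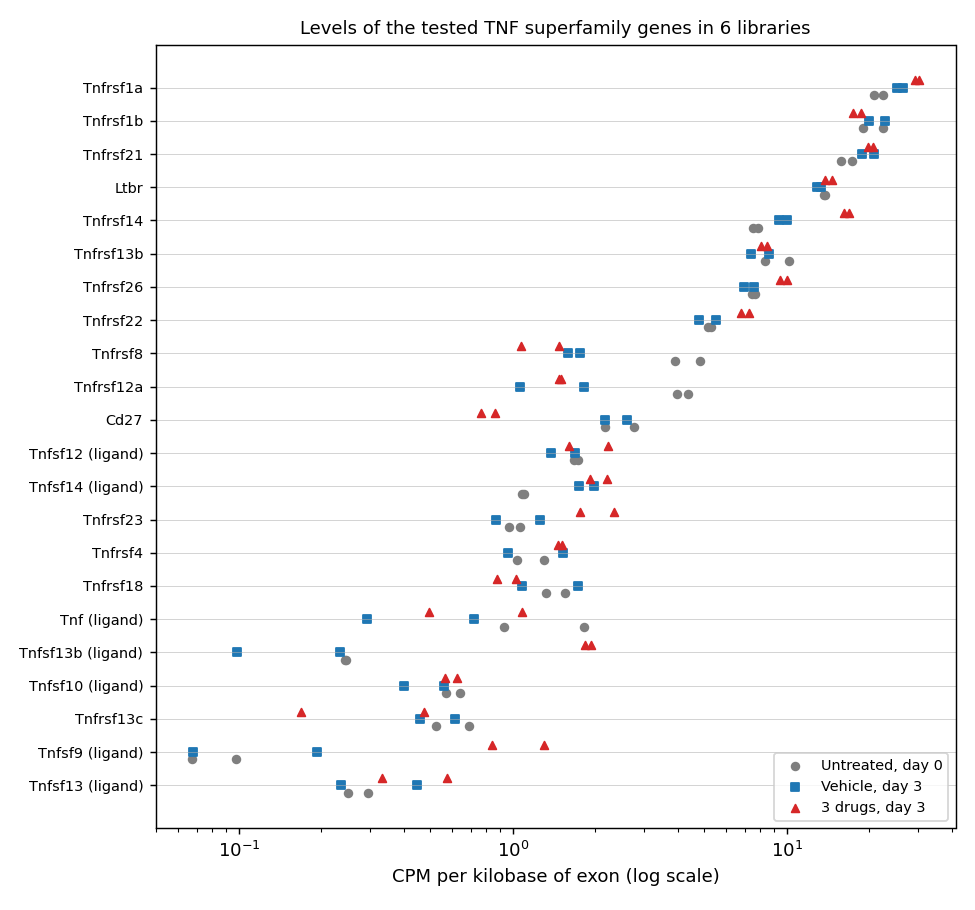
Level of each of the 22 tested members in each of the 6 libraries, as CPM per kilobase of exon on a log scale, ordered by the mean over the 3 groups, with circles for untreated day 0, squares for vehicle and triangles for the 3 drugs. Receptors fill the upper rows, and the drug libraries stand to the right for Tnfrsf14, Tnfsf13b and Tnfsf9 and to the left for Cd27.

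The other 16 members were too low to test. No counts at all were found in any library for the ligands Cd40lg, Tnfsf4, Tnfsf11 and Tnfsf18 or for the receptors Tnfrsf11a, Tnfrsf11b and Tnfrsf19. A floor of 3 counts corresponded to between 0.179 and 0.251 CPM, depending on the library. Lta, Tnfsf15, Cd40, Tnfrsf17 and Tnfrsf9 had at most 1 count in any library, and Tnfrsf25 at most 2. RANK ligand (Tnfsf11) and its receptor Tnfrsf11a, which drive osteoclast formation from myeloid precursors, were therefore both undetected, as was the CD40 ligand. Ltb, which forms membrane lymphotoxin, had counts of 11 and 10 at day 0, of 4 and 7 with vehicle, and of 10 and 8 after the drugs. Tnfrsf10b, the mouse TRAIL death receptor, had 6 and 6, 3 and 3, and 0 and 4 counts in the same order. Tnfsf8, the ligand of Tnfrsf8, had 5 and 3 counts at day 0, 0 in both vehicle libraries, and 6 and 8 with the drugs.

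The comparison of the 3 drugs with vehicle at day 3 addressed what the treatment changed. It called 7 of the 22 tested members (31.8%), beside 31.9% of all tested genes, so the share of members called was close to the background. The ligands Tnfsf13b and Tnfsf9 and the receptors Tnfrsf14, Tnfrsf22, Tnfrsf23 and Tnfrsf26 rose, beside 18.1% of all genes, and Cd27 fell, beside 13.8%. The median log2 change was 0.24 over the members and 0.000753 over all tested genes. All 7 tested ligands had positive log2 values, from 0.14 to 3.44, with a median of 0.46, but only 2 were called. Those 2, Tnfsf13b and Tnfsf9, passed the filter on low counts only through the drug libraries, so their direction was fixed by the filter and the ligands' range and count support nothing further. The share of members called and the median over the members also include them. The receptors had a median of 0.05. Without drug replicate 1 the calls fell from 7 to 4.

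**Figure D2:**
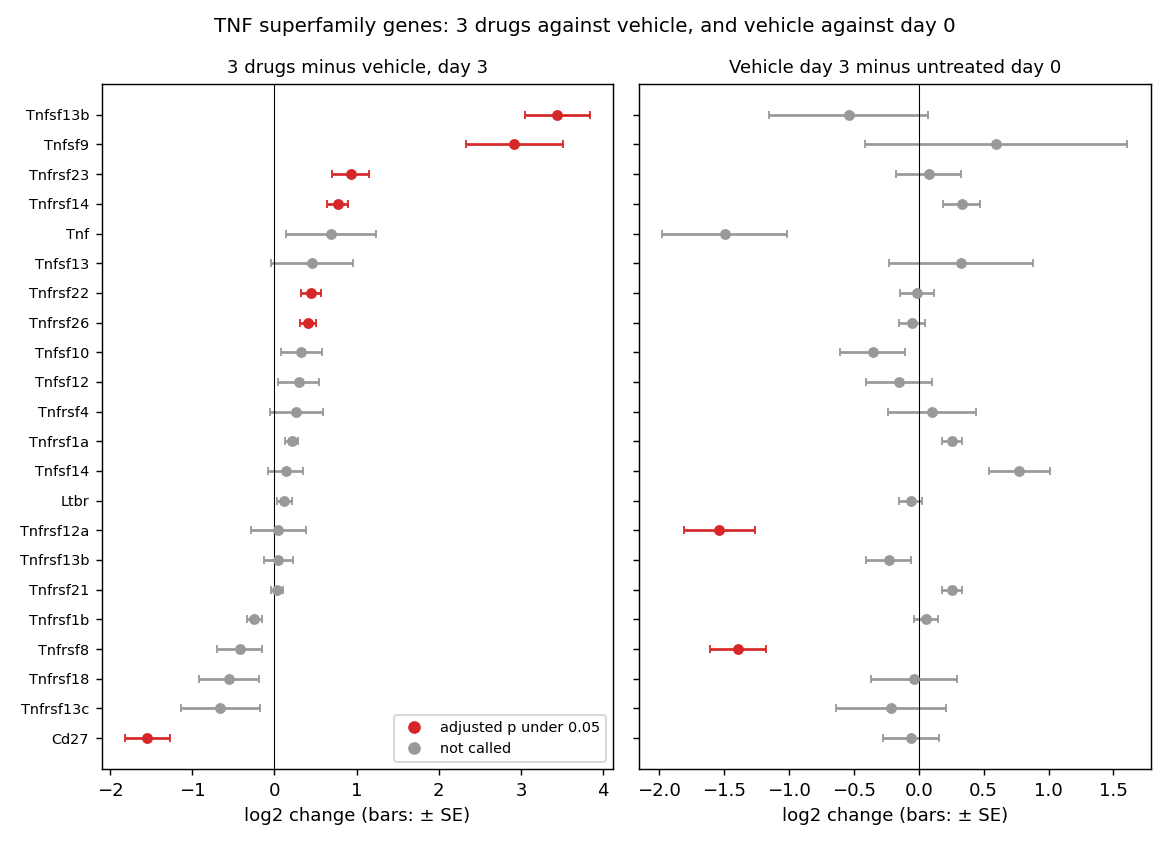
The log2 change of each tested member with its standard error, for the 3 drugs against vehicle (left) and vehicle against day 0 (right), with called changes in red. Tnfsf13b and Tnfsf9 lie at 3.44 and 2.92 on the left, whereas on the right the called members are Tnfrsf12a and Tnfrsf8. Both panels share the vehicle libraries.

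Tnfsf13b, the B cell activating factor BAFF, which myeloid cells supply to B cells, rose with the drugs. Its level was 0.419 and 0.416 CPM at day 0, 0.395 and 0.167 CPM with vehicle, and 3.28 and 3.10 CPM with the drugs. Both drug libraries stood above all 4 others. The log2 change against vehicle was 3.44 ± 0.395 (SE), a 10.9-fold rise (edgeR adjusted p = 2.58e-05), and against day 0 it was 2.90 ± 0.347. The counts behind it were 41 and 48 with the drugs and at most 7 elsewhere, so the gene passed the filter only through the drug libraries and its fold carries the error of small counts. The gene spans bases 10006633 to 10035999 of chromosome 8 (mm10).

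Of the BAFF receptors, Tnfrsf13b (TACI) was at 7.66 and 6.23 CPM at day 0, 5.53 and 6.44 CPM with vehicle and 6.01 and 6.32 CPM with the drugs. The groups overlapped and no comparison called it. Tnfrsf13c, the receptor specific for BAFF, lay between 0.320 and 1.32 CPM and was not called. The related ligand Tnfsf13 (APRIL) lay between 0.395 and 0.968 CPM, and its exons overlap those of the read-through gene BC096441.

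Tnfsf9, a costimulatory ligand for T cells, had 2 and 1 counts at day 0, 3 and 1 in the vehicle libraries, and 20 and 16 in the drug libraries. These are levels of 0.120 and 0.0831 CPM, 0.237 and 0.0836 CPM, and 1.60 and 1.03 CPM. Both drug libraries were above the others. The log2 change against vehicle was 2.92 ± 0.586 (edgeR adjusted p = 0.0022), and this gene too passed the filter only through the drug libraries. Against day 0, the counts of 36 and 3 gave a ratio of 12.3 with a 95% counting interval of 3.9 to 62.6. Its receptor Tnfrsf9 had at most 1 count in any library.

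The promoters of 3 members that changed and of an abundant neighbour are shown to give the sequence just upstream of each start. RefSeq (GRCm38.p6) gave a promoter for 29 of the 38 members, and the 250 bases before the start are printed 5′ to 3′ on the gene's strand. Capitals mark matches to the motifs searched on both strands: the GFI1 core AATCAC, the PU.1 core GAGGAA and a 10-base NF-kB site. The NF-kB site was searched as GGG, A or G, any base, A or T, C or T, C or T, then CC. GFI1 works with LSD1 as a repressor and PU.1 is the main myeloid transcription factor. Tnfsf13b, at chr8:10006217-10006466 on the plus strand (the more upstream of 2 starts), and Cd27, at chr6:125237028-125237277 on the minus strand, rose and fell with the drugs. Tnfrsf8, at chr4:145315165-145315414, was lower with vehicle at day 3 than at day 0, and its neighbour Tnfrsf1b, at chr4:145246871-145247120, was abundant throughout; both are on the minus strand.
Tnfsf13b: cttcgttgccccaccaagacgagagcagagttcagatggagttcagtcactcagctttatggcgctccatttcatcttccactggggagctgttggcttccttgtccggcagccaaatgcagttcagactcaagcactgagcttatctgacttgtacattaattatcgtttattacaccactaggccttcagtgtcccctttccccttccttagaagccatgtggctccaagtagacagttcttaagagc
Cd27: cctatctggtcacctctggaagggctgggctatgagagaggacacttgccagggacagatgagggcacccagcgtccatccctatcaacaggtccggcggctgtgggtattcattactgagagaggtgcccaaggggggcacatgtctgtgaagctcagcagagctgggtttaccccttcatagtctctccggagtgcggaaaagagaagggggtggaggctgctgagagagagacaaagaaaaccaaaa
Tnfrsf8: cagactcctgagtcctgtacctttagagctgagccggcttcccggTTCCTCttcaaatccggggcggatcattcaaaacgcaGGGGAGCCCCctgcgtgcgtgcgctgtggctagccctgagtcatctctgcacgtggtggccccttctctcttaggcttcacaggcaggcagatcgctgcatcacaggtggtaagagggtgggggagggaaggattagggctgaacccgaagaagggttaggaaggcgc
Tnfrsf1b: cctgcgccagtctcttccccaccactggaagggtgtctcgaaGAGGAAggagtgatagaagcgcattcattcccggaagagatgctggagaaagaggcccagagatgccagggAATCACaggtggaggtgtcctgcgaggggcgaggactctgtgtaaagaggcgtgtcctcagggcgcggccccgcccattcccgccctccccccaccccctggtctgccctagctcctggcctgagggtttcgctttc
In Tnfrsf8 the PU.1 core lay at bases 205 to 200 before the start and the NF-kB site at bases 168 to 159, both on the reverse strand. In Tnfrsf1b the PU.1 core lay at bases 208 to 203 and the GFI1 core at bases 137 to 132, both on the forward strand. Tnfsf13b and Cd27 held none of these letters in this window. The PU.1 core was found in 12 of the 29 member promoters and in 25.9% of the promoters of 27025 genes, the GFI1 core in 1 and 10.4%, and the NF-kB site in 3 (Ltb, Tnfrsf8 and Tnfrsf9) and 4.46%. Of the 4 members with a promoter that were called against vehicle, 0 held any of these motifs. A match is a description and not a site of binding.

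Tnfrsf14 (HVEM), which binds the ligand Tnfsf14 and the lymphocyte inhibitory receptor BTLA, rose with the drugs in the fit as made and under all 12 alternatives. It was at 7.0 and 6.73 CPM at day 0, 8.93 and 8.36 CPM with vehicle, and 14.4 and 15.0 CPM with the drugs. The 3 groups did not overlap, and the drug libraries were the highest. The log2 change against vehicle was 0.77 ± 0.128, a 1.70-fold rise (edgeR adjusted p = 0.000586), and against day 0 it was 1.10 ± 0.130 (edgeR adjusted p = 2.63e-05). The gene lies on chromosome 4 (mm10, bases 154922210 to 154928077).

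Tnfsf14 (LIGHT), its ligand, was at 2.03 and 1.99 CPM at day 0, 3.24 and 3.68 CPM with vehicle and 4.09 and 3.55 CPM with the drugs. The day 0 libraries were the lowest, and vehicle and drug libraries overlapped. The log2 change was 0.77 ± 0.236 for vehicle against day 0 (edgeR adjusted p = 0.0649) and 0.91 ± 0.226 for the drugs against day 0 (edgeR adjusted p = 0.006013). DESeq2 (adjusted p = 0.05085) and the fit that left out drug replicate 1 (0.05915) did not make the latter call.

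Cd27, a costimulatory receptor of lymphocytes that also marks early haematopoietic progenitors, fell with the drugs. Its level was 4.37 and 3.41 CPM at day 0, 4.11 and 3.43 CPM with vehicle, and 1.20 and 1.36 CPM with the drugs. Both drug libraries were below all others, and day 0 and vehicle overlapped. The log2 change against vehicle was -1.55 ± 0.272 (edgeR adjusted p = 0.000857). The gene spans bases 125232622 to 125237027 of chromosome 6. The B cell markers moved beside it: their summed level was 74.2 and 81.9 CPM at day 0, 92.0 and 78.9 CPM with vehicle and 49.7 and 48.1 CPM with the drugs. Of the 3 tested B cell markers, Ebf1 and Cd79b fell and Cd79a rose, and the part of B lineage RNA in the Cd27 result was not tested. The Cd27 ligand Cd70 had 0 counts in all libraries.

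**Figure D3:**
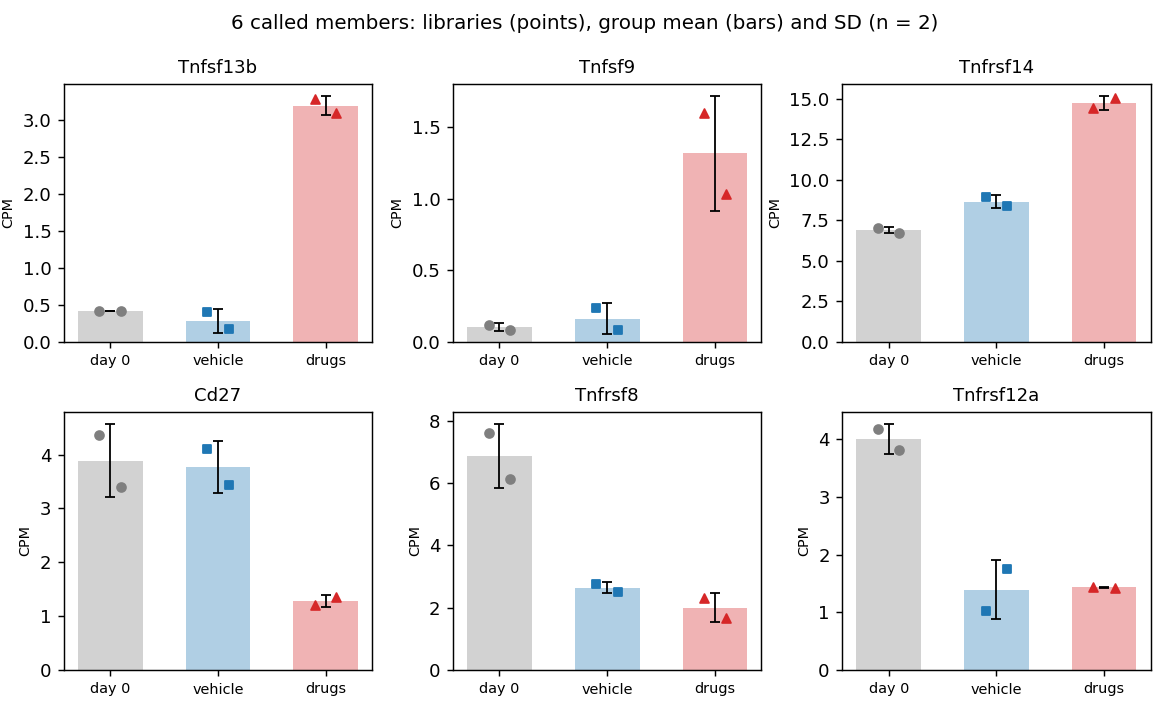
CPM of Tnfsf13b, Tnfsf9, Tnfrsf14, Cd27, Tnfrsf8 and Tnfrsf12a in the 6 libraries, with points for libraries, bars for the group mean and error bars for the SD (n = 2). The first 3 are highest with the drugs, Cd27 is lowest with the drugs, and Tnfrsf8 and Tnfrsf12a are highest at day 0.

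The 3 related receptors that lie side by side on chromosome 7 each rose with the drugs. Tnfrsf22 and Tnfrsf23 are decoy receptors that bind TRAIL without a death domain, and Tnfrsf26 is their close relative. Tnfrsf26 was at 22.8 and 22.3 CPM at day 0, 20.8 and 22.7 CPM with vehicle and 29.8 and 28.0 CPM with the drugs. Tnfrsf22 was at 11.7 and 12.1, 12.6 and 10.9, and 16.5 and 15.5 CPM, and Tnfrsf23 at 3.17 and 3.49, 4.11 and 2.84, and 7.69 and 5.74 CPM, in the same order. For each gene both drug libraries were above all others, and day 0 and vehicle overlapped.

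The log2 changes against vehicle were 0.41 ± 0.0982 for Tnfrsf26, 0.44 ± 0.124 for Tnfrsf22 and 0.93 ± 0.225 for Tnfrsf23 (edgeR adjusted p = 0.00666, 0.016 and 0.0072). These calls leaned on single libraries. Without drug replicate 1 the adjusted p was 0.08236, 0.1223 and 0.08985 in that order. Tnfrsf26 was also lost without vehicle replicate 1 (adjusted p = 0.05307), Tnfrsf23 without vehicle replicate 2 (0.07103), and Tnfrsf22 without vehicle replicate 2 (0.1268), without drug replicate 2 (0.06261) and with DESeq2 (0.09107). No source used here states how reads matching more than 1 of these related genes were counted, so their separate levels are uncertain. Of the genes next to them, Osbpl5, a lipid transfer protein gene, rose from 26.4 to 35.1 CPM (log2 change 0.41 ± 0.0874, edgeR adjusted p = 0.00312). On the other side Cars, the cysteinyl-tRNA synthetase gene, fell from 44.5 to 31.1 CPM (log2 change -0.52 ± 0.0923, edgeR adjusted p = 0.000926).

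**Figure D4:**
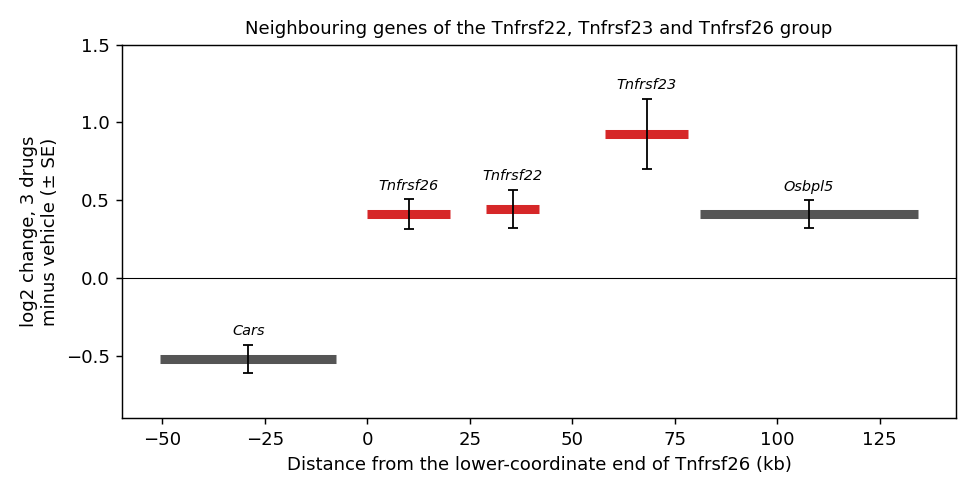
Log2 change with its standard error, drugs against vehicle, for Tnfrsf26, Tnfrsf22, Tnfrsf23 (red) and the gene on each side (grey), plotted against distance in kilobases from the lower-coordinate end of Tnfrsf26; the length of each bar is the span of the gene. Cars lies below 0 at -0.52 and the other 4 genes lie above it.

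The abundant receptors for TNF were not called against vehicle. Tnfrsf1b was at 93.0 and 110.0 CPM at day 0, 112.1 and 98.2 CPM with vehicle and 85.2 and 91.8 CPM with the drugs, so the drug libraries were the lowest. Its log2 value of -0.25 ± 0.0919 was not called (edgeR adjusted p = 0.0564), but 7 of the 12 alternatives called it lower. Tnfrsf1a was at 48.1 and 45.0, 54.3 and 57.4, and 63.4 and 65.4 CPM, with no overlap between groups. Its log2 value against vehicle was 0.21 ± 0.0754 (edgeR adjusted p = 0.0516, called under 3 of the 12 alternatives), and against day 0 it rose by 0.47 ± 0.0756 (edgeR adjusted p = 0.000337). Their ligand Tnf was at 2.93 and 1.5 CPM at day 0, 0.474 and 1.17 CPM with vehicle and 0.801 and 1.74 CPM with the drugs. The groups overlapped except that both vehicle libraries lay below both day 0 libraries, and the log2 value for vehicle against day 0 was -1.49 ± 0.483 (edgeR adjusted p = 0.0786). It was called lower without a filter on low counts (adjusted p = 0.001998) and without untreated replicate 2 (0.01455).

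Tnfrsf21, a death domain receptor best studied in neurons, was at 57.3 and 62.8 CPM at day 0, 75.1 and 68.1 CPM with vehicle and 71.4 and 74.9 CPM with the drugs. Vehicle and drug libraries overlapped, and both were above day 0. The drugs against day 0 gave a rise of 0.29 ± 0.079 on the log2 scale (edgeR adjusted p = 0.0106), lost without untreated replicate 1 (0.0757) and without drug replicate 2 (0.1128). Ltbr, the lymphotoxin beta receptor, was at 28.7 and 28.5, 26.9 and 27.9, and 28.9 and 30.6 CPM in the same order. Its groups lay within a few CPM of each other and no comparison called it. The death ligand Tnfsf10 (TRAIL) ranged from 1.98 to 3.17 CPM and Tnfsf12 (TWEAK) from 2.34 to 3.76 CPM, neither called. Tnfrsf4 and Tnfrsf18, costimulatory receptors of T cells, lay between 0.881 and 1.76 CPM with no calls.

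The comparison of vehicle at day 3 with untreated cells at day 0 covers 3 days of culture and DMSO together, which cannot be told apart here. It called 2 of the 22 tested members (9.09%), both lower, beside 7.74% of all tested genes in either direction, 3.75% higher and 3.99% lower. The median log2 change was -0.05 over the members and -0.02 over all tested genes. Scaling by library totals without TMM called 5 members, 3 higher and 2 lower. Tnfrsf8 (CD30), a receptor known from activated lymphocytes, was at 7.60 and 6.15 CPM at day 0, 2.77 and 2.51 CPM with vehicle and 2.32 and 1.68 CPM with the drugs. Both day 0 libraries were above all 4 day 3 libraries. The log2 change of vehicle against day 0 was -1.39 ± 0.216 (edgeR adjusted p = 0.0020), and the drugs against vehicle were not called (adjusted p = 0.268).

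Tnfrsf12a (Fn14), the receptor of Tnfsf12 and typically induced by growth factors and injury, was at 4.19 and 3.82 CPM at day 0, 1.03 and 1.76 CPM with vehicle and 1.44 and 1.42 CPM with the drugs. The day 0 libraries were again the highest, and vehicle and drug libraries overlapped. The log2 change of vehicle against day 0 was -1.54 ± 0.274 (edgeR adjusted p = 0.00503), and it was not called without vehicle replicate 1 (0.07271). Its exons overlap those of Hcfc1r1, and no source used here states whether counting used strand. Some markers of other lineages also differed between these groups. The erythroid and megakaryocyte list summed to 45.0 and 33.5 CPM at day 0 and to 16.5 and 21.2 CPM with vehicle, where Itga2b fell and Pf4 and Gp9 were not called. The mast cell and basophil list summed to 1155 and 969 CPM and to 558 and 542 CPM, where Cpa3 fell, from 1057 and 871 CPM to 469 and 452 CPM, and Gata2, Mcpt8 and Ms4a2 were not called. Their part in the 2 falls was not tested.

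The drugs against day 0, which joins culture, solvent and treatment and shares libraries with both other comparisons, called 12 of 22 members (54.5%) beside 43.9% of all tested genes. Among all tested genes 22.7% were higher and 21.2% lower. The members that were higher were Tnfsf9, Tnfsf13b, Tnfsf14, Tnfrsf1a, Tnfrsf14, Tnfrsf21, Tnfrsf22, Tnfrsf23 and Tnfrsf26, and those lower were Cd27, Tnfrsf8 and Tnfrsf12a. Tnfsf9 and Tnfsf13b passed the filter on low counts only through the drug libraries. Their rise over day 0 was thus fixed by the filter, and the share of members called includes them. The median was 0.22 over the members and -0.00752 over all tested genes. The log2 changes of Tnfrsf26, Tnfrsf22 and Tnfrsf23 were 0.36, 0.43 and 1.0 here, and those of Tnfrsf8 and Tnfrsf12a were -1.81 ± 0.223 and -1.49 ± 0.264.

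Some markers of other cell types also differed between drug and vehicle libraries. The 6 tested monocyte and macrophage markers of 7 rose against vehicle, and their list summed to 563 and 523 CPM with vehicle and 1064 and 1151 CPM with the drugs, with C1qa at 0. Ccr2 alone made up 543 and 503 CPM of the vehicle sums and 769 and 827 CPM of the drug sums. At day 0 the list summed to 813 and 854 CPM, of which Ccr2 made up 793 and 835 CPM. With the drugs against day 0, Ccr2 was not called and the other 5 tested markers rose. The neutrophil list summed to 10.1 and 14.2 CPM and to 3485 and 3802 CPM, but Mmp8 alone made up 3484 and 3800 CPM of the drug sums. S100a8, the other tested neutrophil marker, had a log2 value of -0.57 (edgeR adjusted p = 0.378), S100a9, Ltf and Ngp stayed below 0.4 CPM and Camp was at 0. The dendritic cell list summed to 287.0 and 287.0 CPM and to 521 and 539 CPM, of which Flt3, also a gene of progenitors, made up 518 and 536 CPM with the drugs. Itgax had a log2 value of -0.42 and was not called, Zbtb46, Xcr1 and Siglech were at most at 0.387 CPM, and Cd209a was at 0. The mast cell and basophil list summed to 558 and 542 CPM with vehicle and 1302 and 1214 CPM with the drugs, where Cpa3 (log2 change 1.32) and Gata2 (0.51) rose, Mcpt8 fell, Ms4a2 was not called and Tpsb2 and Fcer1a were at 0. The erythroid and megakaryocyte list summed to 16.5 and 21.2 CPM and to 18.3 and 14.5 CPM, where Gp9 fell (log2 change -2.58), Itga2b and Pf4 were not called and Hba-a1 was at 0. The part of these cell types in the changes of Tnfsf13b, Tnfsf9, Tnfrsf14 and the other called members was not tested.

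The signalling and processing genes around the receptors were described from lists of their known components. These lists were chosen with earlier results of these data known. Their counts are therefore descriptions and do not support an excess over all tested genes. Of 26 tested adaptors and death domain genes, 9 rose and 0 fell with the drugs against vehicle, beside 18.1% higher and 13.8% lower among all tested genes, with a median log2 change of 0.04. Map3k5, the stress kinase ASK1, went from 73.0 and 70.9 CPM with vehicle to 135.0 and 132.6 CPM with the drugs (log2 change 0.89 ± 0.0771, edgeR adjusted p = 1.955e-06), with no overlap. Birc2, a ubiquitin ligase of the TNF receptor complex, went from 27.5 and 31.9 CPM to 42.2 and 43.4 CPM (0.53 ± 0.0927, edgeR adjusted p = 0.00083). Tnfaip3, the NF-kB feedback inhibitor A20, went from 2.92 and 2.26 CPM to 5.21 and 4.32 CPM. Its log2 change was 0.86 ± 0.240 (edgeR adjusted p = 0.0156), lost without drug replicate 1 (0.1228), without vehicle replicate 2 (0.1149) and with DESeq2 (0.07855). The count of 9 fell to 4 without drug replicate 1 and to 6 with DESeq2.

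Of 16 tested genes of the NF-kB arms, 7 rose and 0 fell with the drugs against vehicle, again beside 18.1% and 13.8% of all tested genes, with a median of 0.20. Against day 0 only 3 of the 16 were higher (Rel, Map3k14 and Rela), beside 22.7% of all tested genes, and Relb (edgeR adjusted p = 0.494) and Tab2 (0.887) were among those not called. Rel, a NF-kB subunit of blood cells, went from 21.1 and 16.4 CPM with vehicle to 36.8 and 34.4 CPM with the drugs (log2 change 0.92 ± 0.118, edgeR adjusted p = 6.663e-05). Map3k14 (NIK), the kinase of the non-canonical arm, went from 5.22 and 4.93 CPM to 9.37 and 10.1 CPM (0.94 ± 0.156, edgeR adjusted p = 0.000571). In both genes the drug libraries stood above all others. Relb, the subunit of the non-canonical arm, went from 1.03 and 3.01 CPM to 3.52 and 4.19 CPM, with a log2 change of 0.96 ± 0.344 (edgeR adjusted p = 0.0495), which 7 alternatives did not call. The 7 calls fell to 3 without drug replicate 1, and to 4 with DESeq2, with the replicate block and without either vehicle replicate or drug replicate 2.

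Of 9 tested genes that process the ligands and receptors, 4 rose and 0 fell with the drugs against vehicle, beside the same 18.1% and 13.8% of all tested genes, with a median of 0.19. Rhbdf2 (iRhom2), which carries the TNF-shedding protease to the cell surface, went from 13.4 and 12.3 CPM with vehicle to 26.2 and 24.3 CPM with the drugs (log2 change 0.97 ± 0.113, edgeR adjusted p = 2.733e-05). Furin, which cleaves the BAFF precursor, went from 37.9 and 33.9 CPM to 57.4 and 54.7 CPM (0.64 ± 0.0844, edgeR adjusted p = 8.651e-05). Adam8, a metalloprotease, fell from 6.88 and 8.23 CPM at day 0 to 1.90 and 1.59 CPM with vehicle (log2 change -2.09 ± 0.218, edgeR adjusted p = 0.000133). With the drugs it was at 3.20 and 3.16 CPM, higher than with vehicle by 0.86 ± 0.255 on the log2 scale (edgeR adjusted p = 0.021), a call lost under 5 alternatives. Against day 0, vehicle called 1 of the 26 adaptors (Cflar, higher), 0 of the 16 NF-kB genes and 1 of the 9 processing genes (Adam8, lower), beside 7.74% of all tested genes. Cflar was not called with the replicate block or without untreated, vehicle or drug replicate 1.

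Of 8 superfamily genes outside the name rule, 2 were tested. Of these, Fas passed the filter on low counts only through the drug libraries, so the filter favoured a rise with the drugs. Fas, the death receptor of the Fas ligand, was at 0.598 and 0.166 CPM at day 0, 0.632 and 1.0 CPM with vehicle and 2.40 and 2.19 CPM with the drugs. Its log2 change against vehicle was 1.48 ± 0.383 (edgeR adjusted p = 0.0104), lost without vehicle replicate 1 (0.1032), without drug replicate 1 (0.06471) and with DESeq2 (0.07355). Relt, a receptor of blood cells, went from 11.1 and 11.6 CPM to 8.73 and 7.62 CPM (log2 change -0.48 ± 0.145, edgeR adjusted p = 0.022), lost under 5 alternatives.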

How the data were processed

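The 6 libraries were read from 1 deposited table of raw counts per gene with exon lengths. Per the submitters' processing notes, STAR 2.7.0f and deepTools 3.0.2 were used with the build mm10; for the annotation release, strand setting and treatment of reads with several matches, nothing is given in the labels or header. Samples were matched to columns by their descriptions and grouped by title. The members and gene lists were chosen with earlier results of these data known. Genes were filtered with filterByExpr (minimum count 10), scaled by TMM and fitted over all 3 groups with edgeR 4.0.16 in R 4.3.3 (quasi-likelihood F test, 3 residual degrees of freedom, common biological coefficient of variation 0.0592). Called means an adjusted p under 0.05 over 11283 genes. The fit was tested on simulated counts. SE is the absolute log2 change divided by the square root of F. CPM divides counts by the tested-gene total times the TMM factor, and the per-length level divides CPM by the deposited exon length. Counting intervals cover counting error only. Members called in a comparison or averaging at least 10 CPM in a group were described with every library. From each list up to 4 called genes were named, by smallest p and largest change. Alternatives were library totals, DESeq2 1.42.0, no filter, 2 groups only, a fit without Rn45s, a replicate block, and leaving out each library.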

Additional observations from a re-analysis of the deposited data

How the results depend on the processing

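Over the 12 alternatives, 13 of the 21 member changes called in the 3 comparisons stayed called under every one, and none of the 21 changed sign. Among the 13 were the rises of Tnfsf13b and Tnfsf9 against vehicle and against day 0, whose direction was fixed by the filter on low counts. A further 8 member values were called under at least 1 alternative only. The drugs against vehicle called 7 members and 3601 genes; leaving out 1 library gave 4 to 9 members and 1833 to 4191 genes. The drugs against day 0 called 12 members and 4958 genes, with 9 to 13 and 2872 to 5142 when 1 library was left out. Vehicle against day 0 called 2 members and 873 genes, and this count moved most: 5 members and 1957 genes with library totals, 6 members and 1664 genes without a filter, 491 genes with DESeq2, 527 with only the 2 groups, 483 with the replicate block, and 1 to 4 members and 351 to 2012 genes when 1 library was left out. The cause was not tested. Library totals moved the median log2 change of all genes in vehicle against day 0 from -0.02 to 0.10, and the share of calls that were higher from 48.5% to 89%; for the drugs against day 0 that share went from 51.7% to 70.4%. The labels do not say that replicate numbers pair the samples, and the deviations of same-numbered libraries correlated at r = -0.28, -0.07 and 0.11 across 11283 genes, which are not independent replicates. With the replicate block 7, 2 and 12 members were called, as without it. Members under about 1 CPM rest on few counts, and 16 members were not testable at this depth.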

Other observations

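The ligands Tnfsf8 and Fasl were both at 0 counts in the 2 vehicle libraries while present at low counts on either side. Tnfsf15 and Tnfrsf25 had the same pattern at at most 1 and 2 counts in any library. How many other genes at such low counts share it was not counted. Tnfsf8 had 5 and 3 counts at day 0 and 6 and 8 with the drugs, and Fasl had 2 and 3 counts at day 0 and 3 and 4 with the drugs. In the edgeR fit without a filter, over 15268 genes, the drugs against vehicle called Tnfsf8 (adjusted p = 0.008082), with the vehicle group at 0, and vehicle against day 0 did not (adjusted p = 0.111).

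Members lie close together in the genome: 9 groups of members less than 150 kb apart held 21 of the 38. On chromosome 6, Cd27 fell with the drugs, whereas the members Ltbr and Tnfrsf1a near it were not called against vehicle. Tapbpl, the gene next to Cd27 on its other side, also fell. It went from 19.6 CPM with vehicle to 13.6 CPM with the drugs (log2 change -0.52 ± 0.110, edgeR adjusted p = 0.00329). On chromosome 17, Tnfsf9 rose, Tnfsf14 beyond it was not called and Cd70 between them had 0 counts.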
